A study of Mus musculus with 5 samples.

Results

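The cells described here are neurons of the embryonic mouse cerebellum that carried RNA of both Tlx3 and Lhx1. They were taken from the EomesCreER e16 library of a single-cell RNA-seq series on the rhombic lip and the origin of Group 3 and Group 4 medulloblastoma. A cell was counted when it had at least 1 UMI (unique molecular identifier, which counts a captured RNA molecule) of Tlx3 and of Lhx1 and none of Lmx1a or Mki67. The cells were thus selected on the detected UMIs of these 4 genes in the same table. The rule held for 123 of the 2676 cells of the library (4.60%, 95% exact Clopper-Pearson interval 3.83 to 5.46), out of 6987 cells in the whole series. They were compared with 1611 cells of the same library that had Eomes and Lmx1a and no Tlx3, called Eomes and Lmx1a cells below.

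The series held 5 libraries of 10x 3′ single-cell RNA-seq from cerebellum. One came from the EomesCreER line at e16, a line in which an inducible Cre recombinase is driven from Eomes. The other 4 carry RL (rhombic lip) and UT in their titles, 2 at e14 and 2 at e13, and no strain is given for them in the labels. The library titled RL e13 replicate 2 has an age tag of e14. No treatment is named for any library, and how cells were selected, or whether Cre had been induced, is not given. The batch file names the e16 cells only by a batch that matches no RL title, so they were assigned to the e16 library as the one left. The e16 group is 1 library, so nothing measured within it has a replicate error. Levels are CPM (UMIs per 1000000, averaged over cells), and intervals on levels are 95% exact Poisson intervals of the summed UMIs. All intervals cover counting error only.

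The rhombic lip is the dorsal germinal zone of the hindbrain that gives rise to the glutamatergic neurons of the cerebellum. Its derivatives include neurons of the deep nuclei, granule cells, and unipolar brush cells, excitatory interneurons of the granular layer that carry Eomes and, in mice, Lmx1a. Tlx3 is a homeobox factor best known for selecting the glutamatergic over the GABAergic fate in the dorsal spinal cord and hindbrain. Lhx1 is a LIM homeobox factor of many postmitotic neurons, Purkinje cells of the cerebellum among them. Mki67 marks cycling cells. In the GENCODE M21 annotation of GRCm38 (mm10), Tlx3 lies on chromosome 11 at 33200752 to 33203589 on the minus strand, and Lhx1 on the same chromosome at 84518284 to 84525535, also on the minus strand.

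The genes of the rule are given as a description only. Tlx3 counts per cell ran from 1 to 46 with a median of 8, and 15 of the 123 cells had a single UMI. Lhx1 was sparser, with 1 to 12 UMIs per cell, a median of 2 and 49 cells at a single UMI. Membership at the Lhx1 threshold therefore turned on 1 molecule in many cells. Mean levels were 771 CPM for Tlx3 (732 to 812) and 175 CPM for Lhx1 (156 to 196). In the library as a whole 294 cells had Tlx3 and 704 had Lhx1, and 157 had both. Of those, 34 fell outside the rule, 19 with Lmx1a and 20 with Mki67. A further 87 cells had Tlx3 without Lhx1, and 271 had Lhx1 without Tlx3, at the same conditions on Lmx1a and Mki67.

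The Tlx3 and Lhx1 cells were deeper than the cells they were compared with. Their median was 15336 UMIs (5344 to 29076) against 9968 (4156 to 30042) in Eomes and Lmx1a cells. A rule on detected UMIs picks deeper cells more easily, so every cell was also thinned to 5000 UMIs, after which 2.26% of the library (1.73 to 2.90) met the rule. No doublet caller was run. Across the series 12 cells shared a barcode with a cell of another library, 3 of them at e16.

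The same rule picked cells at other frequencies in the rhombic lip libraries. In RL e14 replicate 1 it held for 39 of 1046 cells (3.73%, 2.66 to 5.06) and in RL e14 replicate 2 for 47 of 741 cells (6.34%, 4.70 to 8.35). In RL e13 replicate 2 it held for 24 of 1818 cells (1.32%, 0.848 to 1.96). RL e13 replicate 1 had 1 such cell of 706 (0.142%, 0.00359 to 0.787). Both e14 libraries overlapped the e16 library in their intervals, and both e13 libraries lay below it. After thinning the shares were 2.11% and 2.71% at e14, 0.111% in RL e13 replicate 2, and 0 of 701 cells in RL e13 replicate 1, which allows a share of up to 0.525%. Line, stage and title change together between these libraries and cannot be told apart, and no test was made.

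**Figure D1:**
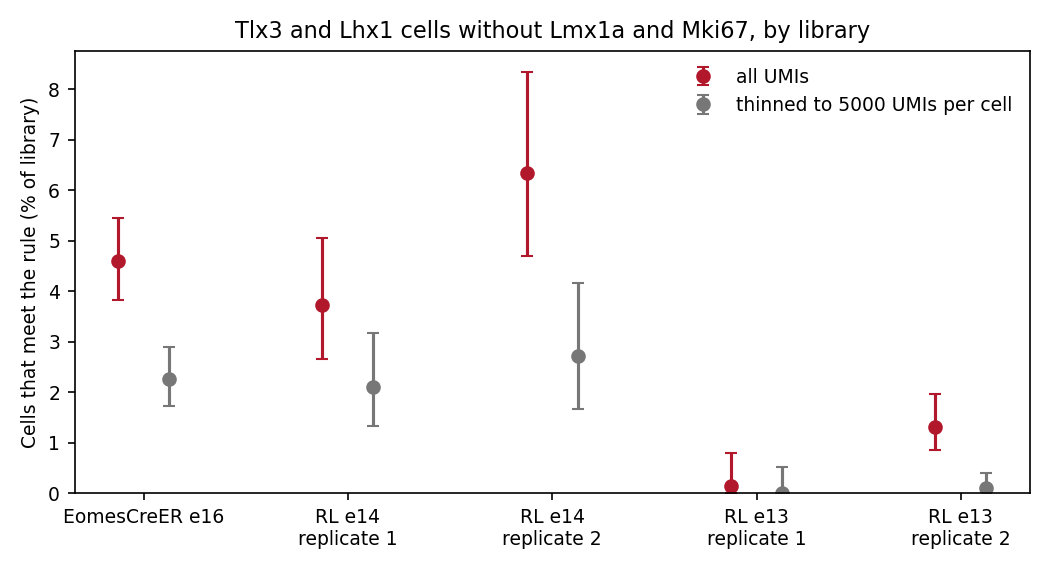
Share of cells (percent of each library, y axis) with Tlx3 and Lhx1 and without Lmx1a and Mki67 in the 5 libraries (x axis), from all UMIs (red) and after thinning to 5000 UMIs per cell (grey). Points are shares and bars 95% Clopper-Pearson intervals. The e16 share of 4.60% lies between the 3.73% and 6.34% of the e14 libraries, and thinning lowers all 5.

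The name given to these cells calls them postmitotic neurons, and pan-neuronal genes were high in them. Stmn2, a tubulin-binding protein of growing neurites, stood at 2593 CPM (2520 to 2668) in Tlx3 and Lhx1 cells and 2250 (2227 to 2273) in Eomes and Lmx1a cells. Tubb3, the neuronal beta-tubulin, stood at 2780 (2704 to 2857) and 3366 (3338 to 3394). Among 15 tested genes of neuronal differentiation and cytoskeleton the median log2 difference was 0.12, and 1, the adhesion molecule Ncam1, lay 2-fold or more lower. Gap43, a growth cone protein, stood at 3206 against 1608 CPM, just short of that mark. Top2a, which acts in replicating and dividing cells, stood at 1.70 CPM in Tlx3 and Lhx1 cells and 42.0 in Eomes and Lmx1a cells, but at 2.07 in the 1535 of these that had no Mki67. The 15 S phase genes summed to 236 against 263 CPM, with 1 of 10 tested genes lower and a median of -0.05, or 0.19 against Eomes and Lmx1a cells without Mki67. The rule had used Mki67, so these cell cycle values are a description.

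The cells shared a glutamatergic identity with their neighbours. Slc17a6, the vesicular glutamate transporter VGLUT2, stood at 280.5 CPM (256 to 307) in Tlx3 and Lhx1 cells and 266 (258 to 274) in Eomes and Lmx1a cells. A UMI of it was present in 89.4% and 83.9% of the cells. Pax6, a paired-box factor of rhombic lip derivatives, had at least 1 UMI in every one of the 123 cells and stood at 519 (487 to 553) against 566 (555 to 578) CPM. Markers of inhibitory neurons were at or near 0. The 7 measured genes of GABAergic and glycinergic neurons summed to 11.8 CPM, with Slc32a1, the vesicular transporter of inhibitory transmitters, at 0 along with Ptf1a and Slc6a5. Gad1, which makes GABA, stood at 3.66 CPM (7 UMIs).

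Purkinje cells also carry Lhx1. Of the 10 genes of their list Skor2, Calb1, Pcp2 and Skor1 were at 0 UMIs in the Tlx3 and Lhx1 cells and 6 had UMIs, Pcp4 the most at 12.9 CPM. The list summed to 32.6 CPM, against 67.4 in Eomes and Lmx1a cells. The 6 measured genes of dorsal hindbrain and sensory relay excitatory neurons summed to 81.4 against 23.2 CPM, with 1 of 3 tested genes, Isl1, past the fold and higher, a median of 0.99, and Pou4f1 and Lmx1b at 0. Genes of the deep nuclei were low or undivided. Tbr1 stood at 5.99 CPM (10 UMIs), Meis2 at 0, and 1 of 5 tested genes, the LIM factor Lhx9, was past the 2-fold mark at 21.3 against 7.27 CPM. Marker lists of 4 other tissues were close to 0, at a sum of 2.69 CPM over 8 microglial genes, 2.29 over 7 endothelial genes, 2.37 over 5 red blood cell genes and 0.495 over 4 choroid plexus genes. The 6 oligodendrocyte genes summed to 45.6 against 15.4 CPM, of which Pdgfra gave 30.7, while Olig1 and Cspg4 were at 0. The 6 meningeal genes, which include Pdgfra, summed to 31.1 against 8.23 CPM, with Col1a1, Col3a1, Dcn and Foxc1 at 0. The 14 progenitor genes summed to 747 against 365 CPM, of which Vim gave 612, while Sox2, Hes1, Hes5, Notch1 and 3 others were at 0. Of the 4 progenitor genes tested 3 were past the fold and higher and none lower, with a median log2 difference of 1.44: Vim, Fabp7 (56.4 CPM, against an interval of 10.4 to 13.7 in Eomes and Lmx1a cells) and Id1 (34.4 against 3.10). Their part in the results below was not tested.

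The comparison with Eomes and Lmx1a cells asked what sets the Tlx3 and Lhx1 cells apart within a single library. A gene counted as past the fold when its log2(CPM + 5) differed by 1 or more and its mean over both groups was 10 CPM or more. Of 8150 genes tested, 268 (3.29%) were higher and 249 (3.06%) lower in Tlx3 and Lhx1 cells, with a median difference of -0.01 over all of them. Both percentages are the baseline for every count over a gene list at e16, above and below. Because the groups were cut from these same cells, the counts describe 1 library and carry no test.

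**Figure D2:**
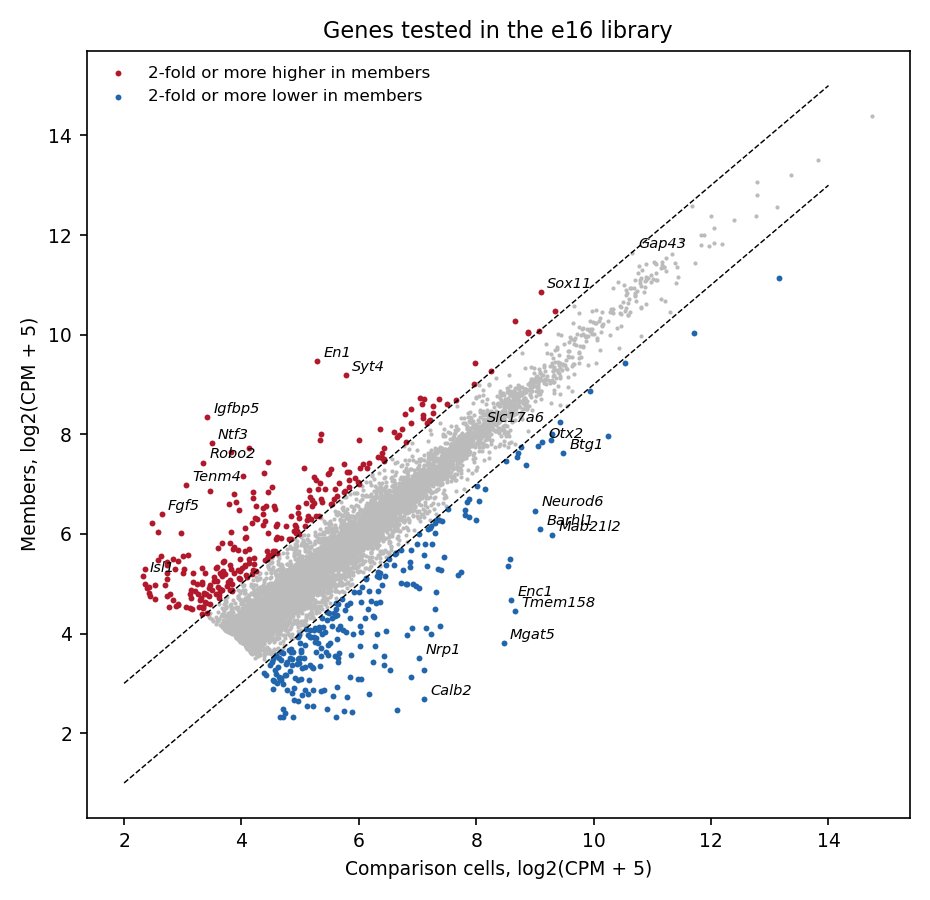
Level of each of the 8150 tested genes in Eomes and Lmx1a cells (x axis) and in Tlx3 and Lhx1 cells (y axis, named members in the plot) of the e16 library, both as log2(CPM + 5). Dashed lines mark a log2 difference of 1 either way. The 268 genes above the upper line include Igfbp5, En1 and Syt4, and the 249 below the lower line include Mgat5, Enc1 and Calb2.

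Ntf3 and Igfbp5, which both encode secreted proteins, were past the fold and higher. Ntf3, the neurotrophin NT-3, stood at 220.2 CPM (200 to 242) in Tlx3 and Lhx1 cells and 6.28 (5.13 to 7.61) in Eomes and Lmx1a cells, and was seen in 66.7% and 5.15% of them (46.3% and 2.51% after thinning). That is 35.1-fold (28.2 to 43.9). Igfbp5, a secreted protein that binds insulin-like growth factors, stood at 321 CPM (297 to 346) and 5.71 (4.70 to 6.87). The fixed list of neuropeptides, growth factors and their receptors, which holds Ntf3, had 1 of 6 tested genes higher, 1 lower and a median of -0.03. Over all genes tested 3.29% were higher and 3.06% lower. Ntrk2, the receptor for BDNF, differed little at 192 against 152 CPM, and Ntrk3, the receptor for NT-3, was low in both at 1.26 and 9.13 CPM.

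Fibroblast growth factors (FGFs) signal through receptor tyrosine kinases, and Etv4, Etv5 and Dusp6 are well-known targets of that signal. Of 12 tested genes of the FGF list, 6 were past the fold and higher and none lower, beside 3.29% and 3.06% of all genes tested. The list median was 0.77 against -0.01 over all genes. Fgf5, counted among the 6, is a marker named with the rule and is given as a description only. It stood at 78.9 CPM (66.3 to 93.1) against 1.25 (0.782 to 1.89) and was seen in 41.5% of Tlx3 and Lhx1 cells and 1.18% of Eomes and Lmx1a cells. Fgf8, the organiser signal of the isthmus, stood at 34.4 CPM (26.7 to 43.5) with 69 UMIs in 26 cells, against 2 UMIs in all 1611 Eomes and Lmx1a cells, a ratio of 332 with a counting interval of 88.6 to 2800. Fgf9 stood at 54.2 against 22.9 CPM. Fgf10, which missed the filter on low values, stood at 17.9 (12.2 to 25.2) against 1.29 (0.836 to 1.91). Fgf8 was detected in 21.1% and Fgf10 in 16.3% of the cells, so most cells had no UMI of either.

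Of the targets on the list, Etv4, Etv5 and Dusp6 were past the fold and higher on average over the 123 cells, and Spry2 was not. Etv4, an ETS transcription factor, stood at 26.5 CPM (19.8 to 34.8) against 1.45 (0.937 to 2.14), and its relative Etv5 at 40.4 (31.8 to 50.6) against 2.15 (1.53 to 2.94). Dusp6, a phosphatase that limits ERK signalling, stood at 60.2 (49.8 to 72.1) against 16.9 (15 to 18.9). The receptor Fgfr1 stood at 14.6 against 17.4 CPM, and Spry2, another target, at 7.56 against 13.1, a log2 difference of -0.53.

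Patterning genes differed as well. En1, a homeobox gene of the midbrain and anterior hindbrain, stood at 708 CPM (669 to 749) in Tlx3 and Lhx1 cells and 34.0 (31.4 to 36.7) in Eomes and Lmx1a cells, 20.8-fold (18.9 to 23.0). Its paralog En2 did not follow, at 115 (99.4 to 132) against 157 (151 to 163). Isl1, a LIM homeobox factor of many projection neurons, had 79 UMIs in the 123 cells (30.7 CPM, 24.3 to 38.2) and none in the 1611, at least 172-fold higher when the latter are set at a floor of 3 counts over the group. Only 13.8% of the Tlx3 and Lhx1 cells had a UMI of it. Pax5, an isthmic paired-box factor below the filter, had 32 UMIs against none (16.4 CPM, at least 91.9-fold higher on the same floor). Irx1, an Iroquois factor, stood at 6.33 (3.03 to 11.6) against 45.1 (42.0 to 48.4).

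Factors of neuronal differentiation split. Insm1, a zinc-finger factor of newborn neurons, stood at 414 CPM (385 to 445) against 132 (127 to 138), and Ebf3 at 383 (354 to 413) against 130.5 (125 to 136). Neurod6, a bHLH factor, stood at 83.5 (70.3 to 98.3) against 509 (498 to 520). Neurod4 had 1 UMI in the Tlx3 and Lhx1 cells, against 32.3 CPM. Of 15 tested genes of this list 3 were higher and 2 lower, beside 3.29% and 3.06% of all genes tested.

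Eomes, whose presence chose the cells set against them, is given as a description only. It was present in 98 of the 123 cells (79.7%, 71.5 to 86.4) although the rule did not ask for it, at 201 CPM (181 to 224) against 798 (785 to 812). No cell type without Eomes was at hand in this library to give the level that free RNA adds, so its part was not tested. Otx2, a homeobox factor of the rhombic lip that no rule used, stood at 224 CPM (203 to 247) against 551 (540 to 563) and was seen in 82.1% of Tlx3 and Lhx1 cells. Calb2, the calcium-binding protein calretinin, had 1 UMI in the 123 cells, against 133 CPM (127 to 139) in Eomes and Lmx1a cells, a ratio of 0.0106 with a counting interval of 0.000269 to 0.0592.

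In the granule lineage list 1 of 12 tested genes was higher and 2 lower, beside 3.29% and 3.06% of all genes tested. The list median was -0.79. Barhl1, a homeobox gene of rhombic lip derivatives, stood at 63.3 CPM (51.8 to 76.5) against 538 (527 to 549), and Zic4 at 230.2 (209 to 253) against 616 (604 to 628). Atoh1, the proneural factor of the rhombic lip, was low in both groups at 11.4 (7.39 to 16.9) and 9.99 (8.60 to 11.6). Etv1 was the 1 gene of 12 past the fold and higher, at 28.7 against 8.92 CPM. Large negative differences also fell on genes outside the lists. Mgat5, a glycosyltransferase of the Golgi, stood at 9.02 CPM (5.16 to 14.7) against 349 (340 to 359). Enc1, an actin-binding protein, stood at 20.4 (14.2 to 28.6) against 381 (371 to 390).

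**Figure D3:**
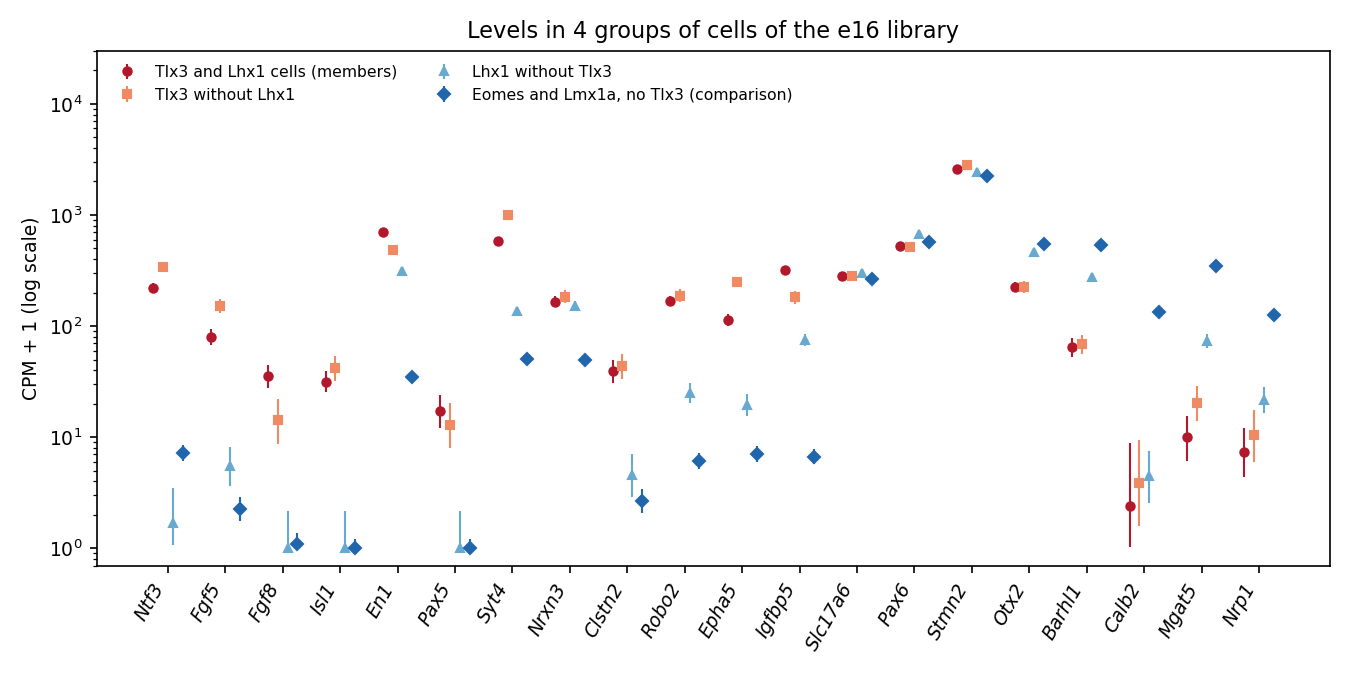
Level (CPM + 1, log axis) of 20 genes in 4 groups of e16 cells: Tlx3 and Lhx1 cells (red circles), Tlx3 without Lhx1 (orange squares), Lhx1 without Tlx3 (light blue triangles) and Eomes and Lmx1a cells (dark blue diamonds). Bars are 95% exact Poisson intervals. For Ntf3, Fgf5 and Isl1 the red and orange marks stand together at the top, and for Barhl1 and Mgat5 they stand together at the bottom.

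Genes that act at the axon and the synapse differed in both directions. Robo2, a receptor for the repellent Slit, stood at 168 CPM (149 to 187) in Tlx3 and Lhx1 cells and 5.14 (4.16 to 6.29) in Eomes and Lmx1a cells. Ephb2 and Epha5, receptors for ephrins, stood at 230 (209 to 253) against 35.6 (32.9 to 38.5) and at 112 (98.5 to 127) against 6.02 (4.93 to 7.28). Dcc, a netrin receptor, stood at 131 (115 to 148) against 33.6 (31.0 to 36.3). The semaphorin co-receptor Nrp1 went the other way, at 6.43 (3.42 to 11.0) against 125 (120 to 131), and so did Sema3a, a secreted semaphorin, at 10.9 (6.77 to 16.7) against 73.9 (69.8 to 78.1). In the guidance list 5 of 25 tested genes were higher and 6 lower, beside 3.29% and 3.06% of all genes tested.

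Syt4, a synaptotagmin of dense-core vesicles, stood at 578 CPM (544 to 615) against 49.9 (46.7 to 53.2), and Nrxn3, a presynaptic neurexin, at 165 (147 to 185) against 48.8 (45.6 to 52.2). Both are markers named with the rule. In the exocytosis list 2 of 23 tested genes were higher, the marker Syt4 among them, and 1 lower, beside 3.29% and 3.06% of all genes tested. The list median was 0.10. Among adhesion genes the teneurins diverged. Tenm4 stood at 122 (106 to 139) against 3.33 (2.53 to 4.30), and Tenm1 at 3.70 (1.49 to 7.61) against 52.7 (49.2 to 56.4). The calsyntenin Clstn2 stood at 38.4 (29.9 to 48.6) against 1.66 (1.10 to 2.40).

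Cadherins and receptors held further differences. Of 10 tested cadherins and protocadherins 5 were higher (Cdh7, Cdh10, Pcdh7, Pcdh15 and Pcdh17) and 2 lower (Cdh4 and Cdh12), beside 3.29% and 3.06% of all genes tested. The kainate receptor subunit Grik3 stood at 59.7 CPM (49.0 to 71.9) against 2.85 (2.11 to 3.77), and the GABA-A receptor subunit Gabra2 at 110 (94.6 to 126) against 16.9 (15.1 to 19.0). Kcnd2, a potassium channel of the A-type current, stood at 101 (86.5 to 117) against 13.3 (11.6 to 15.2), while the sodium channel Scn3a stood at 2.64 (0.719 to 6.76) against 44.6 (41.4 to 48.0).

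**Figure D4:**
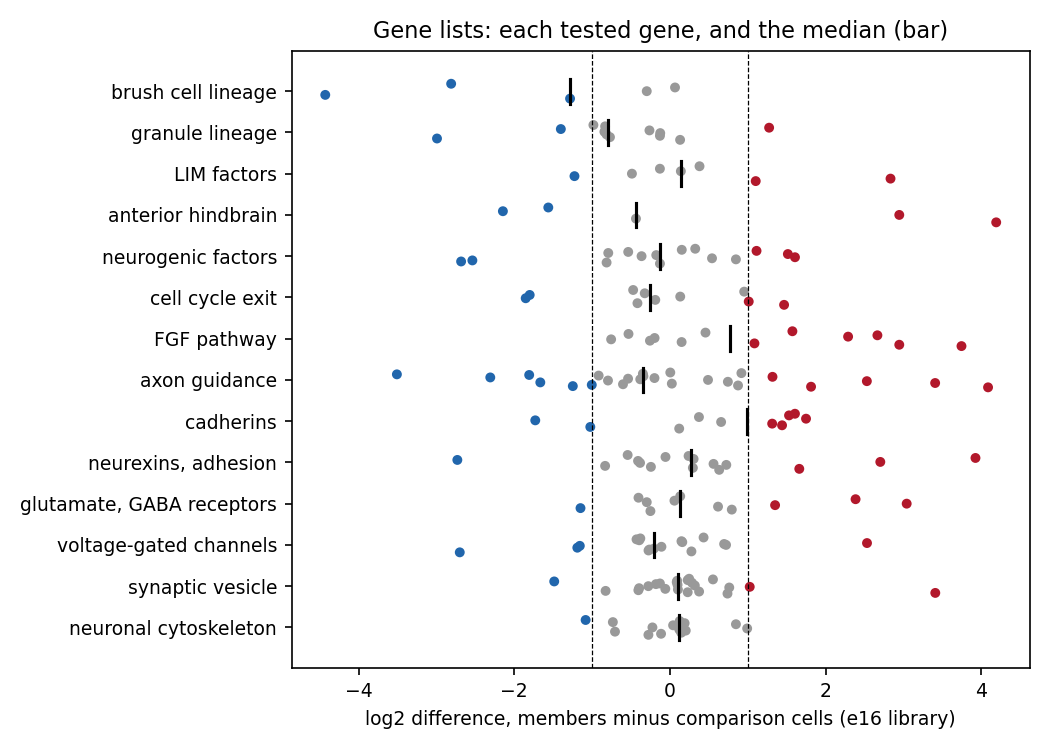
Log2 difference (x axis, Tlx3 and Lhx1 cells minus Eomes and Lmx1a cells, e16 library) of each tested gene of 14 gene lists (y axis), red or blue where past the fold. Black bars are list medians and dashed lines mark a difference of 1. The FGF list has 6 genes to the right, the marker Fgf5 among them, and none to the left, and the guidance list has genes on both sides. Over all tested genes 3.29% lie to the right and 3.06% to the left.

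The cells were also set beside those with only 1 of the 2 factors. Against cells with Tlx3 and no Lhx1, 40 of 8105 genes (0.494%) were past the fold. Against cells with Lhx1 and no Tlx3 the number was 246 of 8045 (3.06%). Ntf3 stood at 342 CPM in cells with Tlx3 alone and 0.685 in cells with Lhx1 alone, and Syt4 at 1000.1 and 136. Fgf5 stood at 152 and 4.53, Robo2 at 187 and 24.2, and Barhl1 at 67.5 and 276. En1 was intermediate in cells with Lhx1 alone, at 312, against 480 with Tlx3 alone. The groups differ in size and depth, with 87 cells at a median of 15103 UMIs and 271 cells at 11851.

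The threshold of 1 UMI bore on some genes and not on others. The 15 cells with a single UMI of Tlx3 stood at 15.8 CPM of Ntf3 and the 108 with more at 249, whereas Syt4 stood at 579 and 578 and En1 at 861 and 687. Tenm4 stood at 16.3 and 136, Epha5 at 0 and 128, Barhl1 at 233 and 39.7 and Enc1 at 68.2 and 13.8. For Tenm4, Epha5, Barhl1 and Enc1 the 15 cells were thus nearer the Eomes and Lmx1a cells than the 108 were. Cadps2, at 253 and 157, went the other way. Cells with 1 UMI of Lhx1 and those with more stood at 259 and 194 CPM of Ntf3 and at 724 and 482 of Syt4. The 19 cells that had both factors and Lmx1a stood at 84.2 CPM of Ntf3, 248 of Syt4 and 205 of En1, between the Tlx3 and Lhx1 cells and the Eomes and Lmx1a cells for each gene.

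Genes at 50 CPM or more in the 157 cells with both Tlx3 and Lhx1 were ranked by their log2 difference from the 1835 cells with neither. Igfbp5 (4.53), Pmaip1 (4.34), Ntf3 (4.08), Tenm4 (3.72) and En1 (3.68) came first. This ranking is within 1 library, across cells that share its preparation, and it does not separate Tlx3 from Lhx1. In cells with Lhx1 alone Pmaip1 stood at 1.34 CPM and Tenm4 at 7.25, against 71.0 and 67.5 in cells with Tlx3 alone. Igfbp5 stood at 74.7 with Lhx1 alone and 180 with Tlx3 alone. Pmaip1, which encodes the BH3-only protein Noxa, stood at 69.2 CPM (58.4 to 81.3) in the 123 cells and 0.556 (0.254 to 1.05) in Eomes and Lmx1a cells, and was seen in 22.8% of the former.

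The 123 cells were not uniform. Graph clustering split them into 7 sub-clusters of 8 to 26 cells, which are described by the genes that split them and are not named as types. Sub-cluster 1 (26 cells) was led by the cyclin Ccnd2 and the progenitor factor Pax3 and held most Fgf8, at 124 CPM, with 1238 CPM of Tlx3, 107 of Syt4 and 76.3 of En1. It also stood highest for Ccnd2 itself (1210 CPM) and for the replication genes Mcm3 (52.3), Mcm6 (73.4) and Mcm7 (94.9). Sub-cluster 4 (18 cells) was led by C1qtnf4 and Fgf5 and stood at 1565 CPM of Syt4, 284 of Fgf5 and 1016 of the neurofilament gene Nefl, with no Fgf8 and no Isl1. Sub-cluster 5 (17 cells) held most Fgf10 (76.3) and En1 (1562), and sub-cluster 3 (18 cells) most Epha5 (345). Sub-cluster 2 (22 cells) was led by the neuropeptide gene Cartpt, and sub-cluster 7 (8 cells) by Lsamp and Barhl2. Isl1 had no UMI in sub-clusters 2, 4, 5 and 6 and stood at 71.3, 62.7 and 98.9 CPM in 1, 3 and 7. Median depth ranged from 13306 to 16580 UMIs.

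Cells with and without Eomes differed in part of these genes. The 25 cells without Eomes stood at 86.4 CPM of Fgf8 against 21.1 in the 98 with it and 252 against 76.2 of Epha5. Cells with Eomes stood higher for Syt4 (648 against 307), Fgf5 (92.1 against 26.9) and the calcium channel subunit Cacna2d1 (210.1 against 70.5). Ntf3 and Robo2 were close, at 214 against 247 and 164 against 181. Of 8032 genes 172 were past the fold and higher without Eomes and 249 lower.

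A replicated measure came from cells that the choice of the e16 cells had not used. The same rule and the same comparison were applied inside 3 rhombic lip libraries with 20 or more cells of each kind: RL e14 replicate 1 (39 and 31 cells), RL e14 replicate 2 (47 and 42) and RL e13 replicate 2 (24 and 60). No label says whether these libraries are from different animals. The p-values cover only how the difference between the 2 kinds of cells varied over the 3 libraries, with variances moderated across genes. That variation may be technical. With limma, the library as a block and Benjamini-Hochberg adjustment, 229 of 8209 genes rose (2.79%) and 338 fell (4.12%) in rule cells at an adjusted p of 0.05, the 5 genes of both rules apart. Of the 268 genes higher at e16, 231 were tested and 107 (46.3%) rose here, while 4 fell. Of the 249 lower at e16, 175 were tested and 82 (46.9%) fell, while 1 rose. When the Eomes and Lmx1a cells were limited to those without Mki67, as the rule cells are, 127 genes rose and 125 fell in all, with 76 of 232 (32.8%) and 67 of 177 (37.9%) of the e16 genes called the same way. Without the block 120 genes rose and 190 fell, with 71 of 231 (30.7%) and 53 of 175 (30.3%) called the same way. Without RL e14 replicate 2 the e16 genes called the same way were 75 of 223 and 48 of 161. Among the genes named for e16 or by their lists and tested here, 55 of 81 passed. These genes had been picked from the e16 differences, so this count is not a rate over all genes. Against Eomes and Lmx1a cells without Mki67, 13 of these calls were lost, those on Top2a, Cenpf and Rrm2 among them.

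The rule cells of these libraries were not the same as those at e16 in every respect. They stood at 135, 95.2 and 175 CPM of Atoh1 and 338, 275 and 505 of Barhl1, against 11.4 and 63.3 at e16. Of the Eomes and Lmx1a cells of the 3 libraries, 17, 29 and 39 had no Mki67, and the remainder had at least 1 UMI of it. Mki67 was part of the choice of rule cells, so genes of the G2 and M phase are a description here: Top2a stood at 24.7 ± 0.647 against 317 ± 159 CPM (SD, n = 3). Against Eomes and Lmx1a cells without Mki67, 3 genes of that list were tested with limma and 0 were called, 0 of them at an unadjusted p of 0.05.

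Ntf3 rose in all 3 libraries. It stood at 155, 208 and 22.6 CPM in rule cells of RL e14 replicates 1 and 2 and RL e13 replicate 2, and at 0, 1.56 and 2.49 in Eomes and Lmx1a cells. The log2 difference was 3.97 ± 0.46 (SE, limma adjusted p = 2.3e-05). Fgf8 stood at 75.9, 71.1 and 31.6 CPM against 0, 0 and 1.29 (3.49 ± 0.37, limma adjusted p = 7e-06). Among the rule cells of the 3 libraries, both genes were lowest in RL e13 replicate 2. Fgf5 missed the filter, at 14, 8.17 and 0 CPM against 0, 0 and 1.18, and Isl1 had no UMI in either group of any of the 3 libraries.

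Of 12 FGF genes tested 5 rose and 1 fell, beside 2.79% and 4.12% of all genes tested in these libraries. Besides Fgf8 the genes that rose were Etv4 (22.3 ± 16 against 1.10 ± 1.91 CPM, limma adjusted p = 0.022), Etv5, Fgf9 and Dusp6, and Spry2 fell by 1.77 on the log2 scale. The calls on Etv4, Etv5, Fgf9 and Dusp6 were lost when only Eomes and Lmx1a cells without Mki67 were used (adjusted p up to 0.14, 0.30, 0.19 and 0.21 over all settings). They were also lost without RL e14 replicate 2. Without the block the calls on Etv4, Fgf9 and Dusp6 were lost, and without RL e14 replicate 1 those on Etv5, Fgf9 and Dusp6. The call on Etv4 was also lost with a pseudocount of 1 CPM, and that on Dusp6 without RL e13 replicate 2. Fgf8 kept its call in every setting run. The call on Spry2 was not followed over settings.

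En1 rose, at 416, 389 and 111 CPM against 73.4, 82.5 and 91.7 (1.62 ± 0.27, limma adjusted p = 0.00092), with a difference in RL e13 replicate 2 of 0.26. Robo2 stood at 175, 203 and 202 against 23.6, 22.3 and 75.5 (2.31 ± 0.24, limma adjusted p = 5.3e-06). Epha5, Ephb2, Cadps2, Kcnd2, Igfbp5 and the tetraspanin Cd9 rose as well and kept their call in every setting run. Syt4 rose from 38.8 ± 17.8 to 90.4 ± 47.9 CPM (SD, n = 3, log2 difference 1.10 ± 0.24, limma adjusted p = 0.0062). That call was lost with Eomes and Lmx1a cells without Mki67, without the block and without RL e14 replicate 2 (adjusted p up to 0.16).

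Among genes lower at e16, Mab21l2 fell, at 23.9, 15.4 and 22.5 CPM against 254, 474 and 175 (log2 difference -3.48 ± 0.26, limma adjusted p = 1.7e-07). Otx2 stood at 98.2, 82.7 and 94.3 against 599, 489 and 343 (-2.28 ± 0.15, limma adjusted p = 4.2e-08), and Mgat5 at 3.97, 5.11 and 23.4 against 50.2, 82.9 and 74.9 (-2.41 ± 0.31, limma adjusted p = 6.8e-05). Irx1, Enc1, Neurod4 and Ncam1 fell too.

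Other e16 differences did not pass in these libraries. Nrxn3 stood at 24.0 ± 13.7 against 22.5 ± 17.1 CPM (0.13 ± 0.30, limma adjusted p = 0.90), Tenm4 at 32.1 ± 11.6 against 14.1 ± 5.195 (0.94 ± 0.34, 0.13) and Nrp1 at 11.0 ± 10.6 against 10.0 ± 9.96 (-0.01 ± 0.56). Barhl1 stood at 372 ± 119 against 502 ± 20.03 (-0.47 ± 0.14, limma adjusted p = 0.051). Insm1 (limma adjusted p = 0.23), Ebf3 (0.67), Neurod6 (0.072), Calb2 (0.25), Dcc (0.52) and Grik3 (0.45) did not pass either. In the same test neither did Etv1 (0.13), Lhx9 (0.51), Id1 (0.97), Cdh4 (0.066), Pcdh7 (0.91) and Pcdh17 (0.14). Slc17a6, level at e16, fell by 1.13 on the log2 scale (limma adjusted p = 0.00014). It stood at 86.2, 91.4 and 80.9 CPM against 156, 237 and 195, and its call was not followed over the settings run. Whether any difference changed between e16 and the rhombic lip libraries was not tested, since e16 has 1 library.

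**Figure D5:**
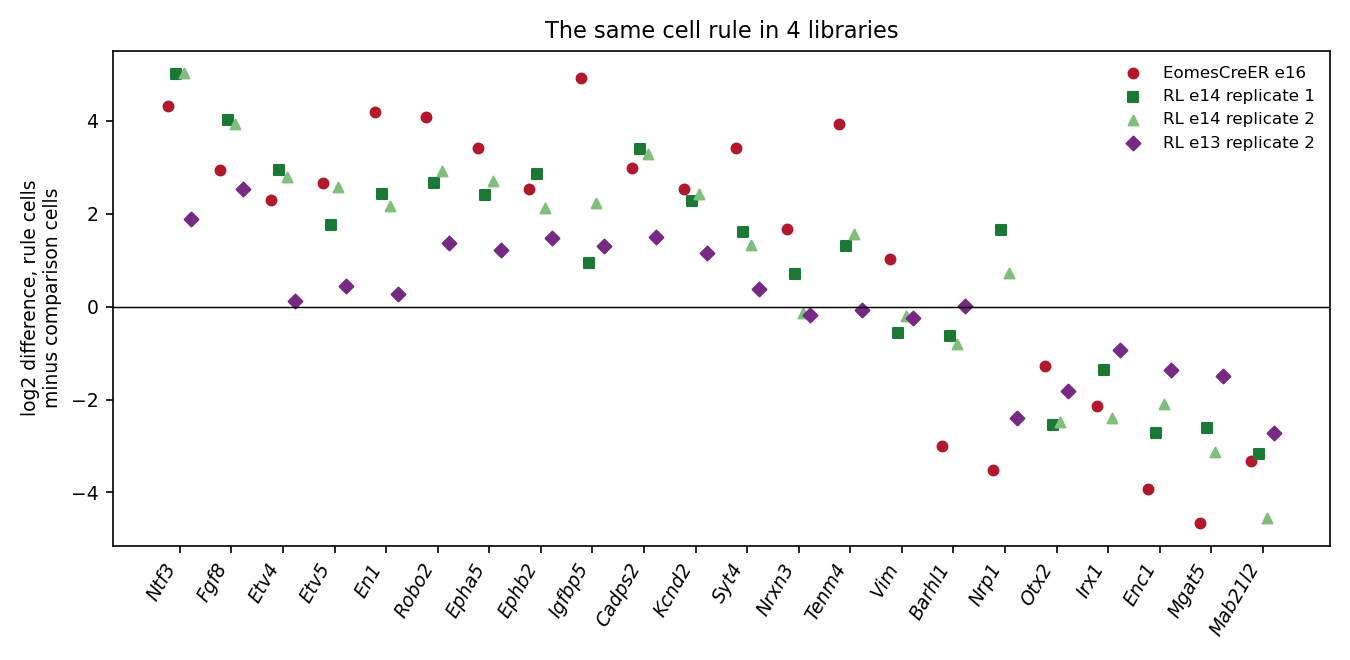
Log2 difference (y axis, rule cells minus Eomes and Lmx1a cells, on log2(CPM + 5)) of 22 genes (x axis) in the e16 library (red circles) and in RL e14 replicate 1 (dark green), RL e14 replicate 2 (light green) and RL e13 replicate 2 (purple), 1 mark per library. Ntf3, Fgf8 and Robo2 lie above 0 and Otx2, Mgat5 and Mab21l2 below 0 in all 4, while Vim and Nrp1 lie on both sides.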

How the data were processed

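The authors deposited a table of natural log values for 15971 genes and a file naming the batch of each cell. Per the submitters' processing notes, Cell Ranger and mm10 were used. Filters on cells are not stated in the labels. The natural log values that the authors deposited were ln(1 + UMIs per 10000), and UMIs recovered from them were whole for 100% of values within 0.01. CPM is the mean over cells of UMIs scaled to 1000000 per cell. The libraries held 13607965 to 33502151 UMIs, with medians of 10346 to 19970 per cell, the lowest at e16. Python 3.11.15 (leidenalg 0.10.2) and R 4.3.3 (limma 3.58.1, trend) were used.

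Members, gene lists (32) and tests were chosen with earlier results of these data known. Genes of the lists were named within them. Outside the lists the 15 highest and 15 lowest differences at 100 CPM or more qualified. So did the 5 genes that ranked highest in cells with both Tlx3 and Lhx1 over cells with neither. Some genes are not reported here. Gene positions are from GENCODE M21. Sub-clusters used 500 variable genes, 10 components and resolution 1. The test in the RL libraries was added after the cells had been counted, paired by library, since both groups of cells come from the same libraries. In simulated profiles of 8166 genes it recovered 39.6% of 187 genes changed by a log2 of 1, with 6 false calls. These profiles shared the same means, with a fixed dispersion and no difference between libraries. They therefore do not give the rates of the test on the real profiles. Alternatives varied the UMIs needed, depth, pseudocount, filter, scaling, averaging and comparison cells. Intervals cover counting error only.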

Additional observations from a re-analysis of the deposited data

Results flagged for a closer look

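Vim, which encodes the intermediate filament vimentin of progenitors and young neurons, lay in opposite directions at e16 and in the rhombic lip libraries. In the e16 library it stood at 612 CPM in Tlx3 and Lhx1 cells and 301 in Eomes and Lmx1a cells, a log2 difference of 1.01. The differences were -0.56 and -0.21 in RL e14 replicates 1 and 2 and -0.23 in RL e13 replicate 2. The limma test over these 3 libraries did not pass (adjusted p = 0.056). It passed in no other setting either, comparison cells without Mki67 among them (adjusted p up to 0.88). The difference between e16 and the rhombic lip libraries was not tested.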

How the results depend on the processing

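The share of cells that met the rule depended on the UMIs required. With Tlx3 and Lhx1 at 2 or more UMIs it was 2.35% at e16, 1.34% and 3.51% in RL e14 replicates 1 and 2, and 0 and 0.550% in RL e13 replicates 1 and 2. Thinned to 5000 UMIs it was 2.26%, 2.11%, 2.71%, 0 and 0.111%. Without the Mki67 condition it was 6.21%, 10.1% and 2.31% in RL e14 replicates 1 and 2 and RL e13 replicate 2, and with Top2a also at 0 it was 0 in RL e13 replicate 1. At e16 the genes past the fold numbered 144 higher and 134 lower with a pseudocount of 20 CPM, 110 and 86 at a mean of 50 CPM or more, and 421 and 425 after thinning, which kept 60 and 1174 cells. The 95 genes followed over settings were the named genes outside the rule and the list genes past the fold at e16. Of these, 93 kept their direction in every setting. Most had been picked for large differences in these same cells, so this count is a description and not a rate over all genes. The exceptions were Birc5, at 0.41 and 0.40 against comparison cells without Mki67 and without Mki67 and Lhx1 and at 0.16 against all other cells without Mki67, and Rrm2, at 0.0072 and 0.037 against the first 2 of these. In the rhombic lip libraries the fit without the replicate block, which ignores the pairing by library, gave 120 genes higher and 190 lower in place of 229 and 338. Comparison cells without Mki67 gave 127 and 125, and Top2a then reversed to 0.68 (adjusted p = 0.54). Leaving out 1 library at a time gave 164 to 338 higher and 248 to 389 lower, the lowest without RL e14 replicate 2 and the highest without RL e13 replicate 2. The cause of these changes was not tested.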

Other observations

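Some genes of the lists that were not past the fold at e16 passed in the rhombic lip libraries. Ccnd1, which encodes cyclin D1, rose in rule cells there by 1.94 ± 0.24 (SE, log2 scale, limma adjusted p = 5.3e-05), higher in 3 of 3 libraries, and stood at 20.5 against 8.16 CPM at e16. Insm2, a relative of Insm1, rose by 2.53 ± 0.34 (limma adjusted p = 0.0001), at 36.8, 43.8 and 25.5 CPM against 3.09, 3.04 and 0. The vesicle protein gene Syt1 rose by 1.74 ± 0.17 (limma adjusted p = 2.8e-06) and stood at 424 against 252 CPM at e16. Barhl2, the paralog of Barhl1, fell by 2.78 on the log2 scale, at 7.97, 7.198 and 5.95 CPM against 79.0, 114 and 50.8.

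In the e16 library the Tlx3 and Lhx1 cells without Eomes stood at 71.2 CPM of Ccnd1 and 41.9 of Insm2, against 7.59 and 4.10 in those with Eomes. Ccnd1, Insm2, Syt1 and Barhl2 were named after their values were seen. Their rhombic lip values are from the fit with all Eomes and Lmx1a cells, with or without Mki67. Their calls were not followed over the other settings.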
